A study of Mus musculus with 4 samples.

Results

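Ifi44l and Hal are 2 of the 55471 genes counted in 4 single-cell RNA libraries of mouse lung at E18.5, shortly before birth. They were picked by symbol because both Dnmt1 CKO libraries held almost none of their transcripts and both wild type libraries held many. The difference between genotypes is therefore given for each of them as a description, with no test, in every cell class. The Dnmt1 CKO group (2 libraries) carried Tbx4-rtTA, Tet-O-Cre and Dnmt1-D/D, and the other group (2 libraries) is labelled wild type with no further allele. Tbx4 is active in the lung mesenchyme, so this combination places Cre, once doxycycline is given, in mesenchymal cells and leaves blood-derived cells outside the target. The sources used here give no strain, no doxycycline schedule and no statement that each library came from its own animal. A p-value measures the spread between libraries, which may be partly technical and, by the Y-linked transcripts given below, holds a difference in sex. With 2 libraries a genotype, a difference in genetic background between the animals and an effect of the deletion cannot be told apart.

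Ifi44l encodes a protein of the IFI44 family, whose genes are induced by interferon. Interferons bind receptors on the cell surface and act through kinases and transcription factors to switch on a large set of antiviral genes, and myeloid cells carry those receptors. RefSeq lists H28 among the synonyms of Ifi44l. H28 is a mouse minor histocompatibility antigen, a class of peptides through which inbred strains differ from each other. Hal encodes histidine ammonia-lyase (histidase), the enzyme that opens the breakdown of histidine by turning it into urocanate and ammonia. It is best known from liver and epidermis.

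In the GENCODE vM21 annotation, on GRCm38, Ifi44l (ENSMUSG00000039146.5, protein coding) covers positions 151758737 to 151762892 of chromosome 3, on the minus strand. Hal (ENSMUSG00000020017.14, protein coding) covers positions 93488768 to 93519304 of chromosome 10, on the plus strand. No other annotated gene overlaps either. The 250 bases before each start are shown because DNMT1, the maintenance methyltransferase, copies methylation at CpG. They are from RefSeq (GRCm38.p6), read 5′ to 3′ on the gene's own strand, and the capitals mark CpG. The Ifi44l sequence lies at chr3:151762892-151763141 on the minus strand and the Hal sequence at chr10:93488518-93488767 on the plus strand.
Ifi44l: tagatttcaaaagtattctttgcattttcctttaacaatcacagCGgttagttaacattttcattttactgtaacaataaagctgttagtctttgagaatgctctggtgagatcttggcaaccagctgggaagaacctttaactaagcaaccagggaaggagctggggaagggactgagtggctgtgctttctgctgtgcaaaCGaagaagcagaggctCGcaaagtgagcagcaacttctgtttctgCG
Hal: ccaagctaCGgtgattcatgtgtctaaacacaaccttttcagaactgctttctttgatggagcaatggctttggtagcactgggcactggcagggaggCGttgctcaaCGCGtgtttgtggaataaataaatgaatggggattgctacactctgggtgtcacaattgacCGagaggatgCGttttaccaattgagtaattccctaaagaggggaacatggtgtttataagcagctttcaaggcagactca
Ifi44l had 4 CpG in this window and Hal had 6, beside a median of 6 over 32851 mouse promoters of the same length. The letters GAAA followed, after any 2 bases (NN), by GAAA again make up the core of the interferon-stimulated response element. They were searched on both strands, were found in neither window, and occur in 2.98% of those promoters. The letters TATAAA, searched likewise, occur once in the Hal window, not in that of Ifi44l, and in 12.4% of promoters. DNA methylation was not measured in these libraries.

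The 4 libraries held between 48213065 and 56760219 UMIs in 6284 to 7820 barcodes, and any pair of libraries shared between 8 and 16 barcodes. After filtering, 4305 and 5677 Dnmt1 CKO cells and 5115 and 4914 wild type cells were kept. Dnmt1 itself was at 9.69 and 12.9 CPM (UMIs of the gene per 1000000 UMIs of the class in that library) in Dnmt1 CKO mesenchymal-like cells, against 27.6 and 26.1 CPM in wild type ones (log2 fold change of Dnmt1 CKO over wild type, −1.27, SE 0.22; adjusted p = 0.00632, edgeR), where 2122 of 16143 genes were called (13.1%). In immune-like cells it was at 77.3 and 39.7 CPM in Dnmt1 CKO, against 57.0 and 62.3 CPM in wild type, and did not pass the test (0.01, SE 0.27; edgeR adjusted p = 0.998). Each SE of a fold change here is approximate, worked back from the fold change and the F statistic of the test. The 3′ counts need not cover the part of Dnmt1 that was deleted. Ddx3y, a Y-linked gene, was at 80.0 CPM in immune-like cells of Dnmt1 CKO replicate 1 and 95.6 CPM in those of wild type replicate 2. It was at 0 UMIs in the other libraries, so each genotype held a library with Y-linked transcripts and a library without. The libraries of a genotype were therefore not repeats of a single animal.

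Cell classes were rebuilt by clustering and named from marker genes, so their names carry "-like". Macrophage-like cells numbered 255 and 393 in Dnmt1 CKO and 126 and 143 in wild type. C1qa, a complement gene of tissue macrophages, was at 4092 and 4514 CPM in the Dnmt1 CKO cells of this class and at 4346 and 4171 CPM in the wild type cells. C1qb was at 4289 and 4904 CPM in Dnmt1 CKO, against 4369 and 4546 CPM. Mrc1, a further macrophage marker, was lower in both mutant libraries, at 1845 and 1070 CPM against 2236 and 2975 CPM. Lpl was higher in both, at 200 and 358 CPM against 86.0 and 57.7 CPM. A difference in the state of these cells between genotypes was not tested. Monocyte-like cells numbered 39 and 63 in Dnmt1 CKO and 80 and 69 in wild type, with Plac8 at 3322 and 5400 CPM against 6807 and 6353 CPM. A further set of myeloid clusters, 376 and 231 Dnmt1 CKO cells and 250 and 224 wild type cells, reached no name from the markers. It was set apart by its score on a separate short list, Ear2, Plet1, Lpl and Abcg1, and is called Ear2/Lpl myeloid here. Ear2, a ribonuclease gene, was at 540.5 and 768 CPM in its Dnmt1 CKO cells and at 554 and 563 CPM in its wild type cells. The level of this single gene does not show that the class held the same cells in both genotypes. Whether the Ear2/Lpl myeloid cells differed in state between genotypes was not tested. Neutrophil-like cells were 28 and 18 in Dnmt1 CKO and 50 and 35 in wild type, and lymphoid-like cells 28 and 30 in Dnmt1 CKO and 19 in each wild type library. Ifi44l and Hal were left out of the genes used for clustering.

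Ifi44l transcripts were mostly those of macrophage-like and monocyte-like cells in the wild type lung and were missing from the same cells of the mutant. Macrophage-like cells held 0 and 0 UMIs in Dnmt1 CKO, against 48 and 83 UMIs in wild type, where the level was 50.3 and 63.0 CPM. Dnmt1 CKO had the larger number of these cells in both libraries. At the wild type level their UMIs would have brought 361 Ifi44l UMIs, so against a floor of 3 UMIs over the group the gene was at least 120-fold lower in Dnmt1 CKO. This bound, like every interval here, covers counting error only.

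Of macrophage-like cells, 0 of 255 and 0 of 393 had an Ifi44l UMI in Dnmt1 CKO, against 84 of 269 in wild type. A count of 0 allows a share of cells with a UMI, at this depth, of up to 1.18% and 0.763% in the 2 mutant libraries, and limits no share of cells that express the gene. The wild type share was 28.6% in replicate 1 (exact 95% binomial interval 20.9 to 37.3%) and 33.6% in replicate 2 (25.9 to 41.9%). In wild type cells that were not immune-like the mean share was 0.0681% over the 2 libraries, at median depths of 5909 and 7519 UMIs a cell, against 8211 and 9150 in the macrophage-like cells. The share in macrophage-like cells was far above that in the cells that were not immune-like. RNA free in the droplets was not measured. Cells thinned to 3000 UMIs gave 0 and 0 UMIs in 231 and 346 Dnmt1 CKO macrophage-like cells, and 12 and 19 UMIs in 105 and 124 wild type ones, with 24 and 47 Dnmt1 CKO cells and 21 and 19 wild type cells left out as too shallow. The groups did not overlap at either depth.

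The wild type level was spread over the macrophage-like clusters. In the largest, led by Pf4, it was 0 and 0 CPM in 177 and 62 Dnmt1 CKO cells and 52.1 and 62.3 CPM in 66 and 74 wild type cells. In the cluster led by C1qa it was 0 and 0 CPM in 26 and 160 Dnmt1 CKO cells, against 58.2 and 69.8 CPM in 33 and 55 wild type cells. A cluster led by Hmox1, the haem-degrading oxygenase, held 20 and 118 Dnmt1 CKO cells and no wild type cell. Without it, 235 and 275 Dnmt1 CKO macrophage-like cells still had 0 Ifi44l UMIs.

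Monocyte-like cells showed the same pattern at lower depth. They held 0 and 0 Ifi44l UMIs in Dnmt1 CKO, against 12 and 31 UMIs in wild type, at 34.4 and 64.9 CPM. The wild type level would have given 27.3 UMIs in the fewer mutant cells, so the gene was at least 9.08-fold lower in Dnmt1 CKO. Monocyte-like and macrophage-like cells together held 84.5% and 91.2% of all Ifi44l UMIs of the wild type libraries, in 4.03% and 4.31% of the kept cells. The order of these 2 classes differed between the wild type libraries, and their counting intervals overlapped in each.

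Elsewhere Ifi44l was at or near 0 in both genotypes, apart from unnamed immune clusters. Ear2/Lpl myeloid cells had 0 and 0 UMIs in Dnmt1 CKO and 1 and 2 UMIs in wild type. Neutrophil-like, lymphoid-like and epithelial-like cells had 0 UMIs in all 4 libraries. For the few neutrophil-like cells this allows up to 55.2 and 109 CPM in Dnmt1 CKO and 35.7 and 42.8 CPM in wild type at the upper 95% Poisson bound. In wild type these bounds lie below the macrophage-like levels of the same libraries, and a lower level was not detectable at this depth. The unnamed immune clusters had 0 and 0 UMIs in Dnmt1 CKO and 7 and 5 UMIs in wild type, at 12.7 and 9.04 CPM. The single Ifi44l UMI among all kept Dnmt1 CKO cells lay in a mesenchymal-like cell of replicate 1. Over all deposited barcodes the totals were 1 and 0 UMIs in Dnmt1 CKO and 78 and 137 UMIs in wild type, so the filter on cells did not make the difference.

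**Figure D1:**
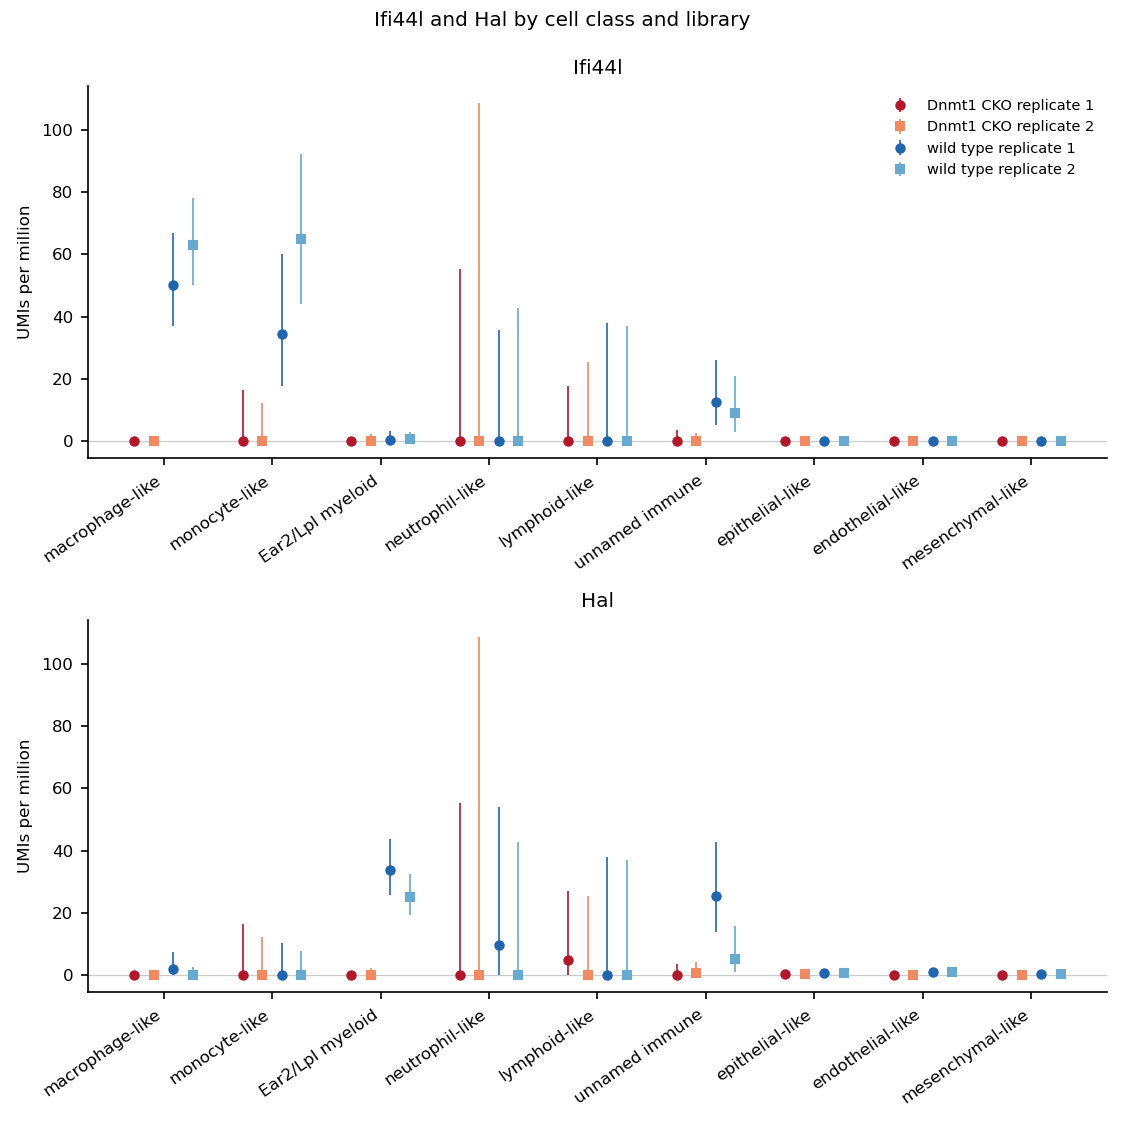
Level of Ifi44l (top) and Hal (bottom), in CPM (vertical axis), by cell class (horizontal axis) in the 2 Dnmt1 CKO libraries (red, orange) and the 2 wild type libraries (blue, light blue). Points are libraries and bars are exact 95% Poisson intervals; Ifi44l stands at 0 in Dnmt1 CKO and at 50.3 and 63.0 CPM in wild type macrophage-like cells, Hal at 0.262 and 0 CPM in Dnmt1 CKO and at 33.8 and 25.3 CPM in wild type Ear2/Lpl myeloid cells, and the long bars are classes of few UMIs.

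Most Hal transcripts of the wild type lung lay in the Ear2/Lpl myeloid cells, in which Ifi44l was near 0. Ear2/Lpl myeloid cells held 1 and 0 Hal UMIs in Dnmt1 CKO, against 58 and 61 UMIs in wild type, at 33.8 and 25.3 CPM. The wild type level would have given 153 UMIs in the mutant cells, and Hal was 153-fold lower there (exact 95% counting interval 27.0 to 6098). In wild type this class held 56.9% and 62.2% of all Hal UMIs in 4.89% and 4.56% of the cells. Macrophage-like cells had 0 and 0 Hal UMIs in Dnmt1 CKO and 2 and 0 in wild type, and monocyte-like cells had 0 in all 4 libraries. Neutrophil-like cells had 0 and 0 in Dnmt1 CKO and 1 and 0 in wild type, and lymphoid-like cells 1 and 0 against 0 and 0. In wild type the upper 95% Poisson bounds were 53.9 and 42.8 CPM (neutrophil-like) and 38.1 and 37.2 CPM (lymphoid-like). These lie above the Ear2/Lpl myeloid levels, so a lower level in these few cells was not shown. The unnamed immune clusters held 0 and 1 Hal UMIs in Dnmt1 CKO, against 14 and 3 UMIs in wild type, at 25.5 and 5.43 CPM. In wild type replicate 1 that was 13.7% of the Hal UMIs, and 24.1% of those 54 cells had one, while in replicate 2 it was 3.06% of the UMIs. Of these 17 wild type UMIs, 7 and 3 lay in the cluster led by Thbs1 and 5 and 0 in the one led by Scn7a.

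A Hal UMI was found in 1 of 607 Dnmt1 CKO cells of this class and in 86 of 474 wild type cells. The wild type share was 18.4% in replicate 1 (exact 95% binomial interval 13.8 to 23.8%) and 17.9% in replicate 2 (13.1 to 23.5%), although replicate 2 was deeper (median of 6205 UMIs a cell in replicate 1 and 9747 in replicate 2). In wild type cells that were not immune-like the mean share was 0.667%, at median depths of 5909 and 7519 UMIs a cell. After thinning to 3000 UMIs the class held 0 and 0 Hal UMIs in 368 and 215 Dnmt1 CKO cells, and 28 and 13 UMIs in 233 and 222 wild type cells. Here 8 and 16 Dnmt1 CKO cells and 17 and 2 wild type cells were left out as too shallow. Wild type replicate 1 had the higher level of the 2 wild type libraries at either depth, and both mutant libraries lay below both.

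All 4 Ear2/Lpl clusters carried Hal in wild type. The cluster led by Plet1, a surface protein gene, had 0 and 0 CPM in 36 and 48 Dnmt1 CKO cells, against 59.4 and 32.4 CPM in 39 and 58 wild type cells. The cluster led by Mki67, a proliferation marker, held the single mutant UMI, with 1 and 0 UMIs in Dnmt1 CKO and 8 and 26 UMIs in wild type. The clusters led by Ear2 and by Lyz2 had 0 UMIs in both mutant libraries, against 20 and 6 UMIs and 10 and 8 UMIs in wild type. Dnmt1 in the whole class was at 100.2 and 39.3 CPM in Dnmt1 CKO and 67.7 and 80.7 CPM in wild type, groups that overlap (edgeR adjusted p = 0.999).

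Unlike Ifi44l, Hal had a low second site in the mutant lung. Epithelial-like cells held 5 and 9 Hal UMIs in Dnmt1 CKO, at 0.561 and 0.450 CPM, and 9 and 14 UMIs in wild type, at 0.635 and 0.830 CPM. The pooled level was 1.53-fold higher in wild type, with a counting interval of 0.754 to 3.21. All 14 mutant UMIs of this class lay in the 2 clusters led by Sftpc, the surfactant protein gene of type II alveolar cells. One cluster had 2 and 3 UMIs in Dnmt1 CKO and 2 and 3 UMIs in wild type, and the other had 3 and 6 UMIs in Dnmt1 CKO and 6 and 9 UMIs in wild type. The clusters led by Ager, a type I alveolar cell gene, had 0 UMIs in Dnmt1 CKO and 1 UMI in wild type.

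Outside the immune-like cells Hal was lower in the mutant by less. All cells that were not immune-like had 7 and 14 UMIs in Dnmt1 CKO and 27 and 34 UMIs in wild type, a level 2.60-fold higher in wild type (1.56 to 4.50), beside 79.2-fold over all immune-like cells (26.5 to 388). Mesenchymal-like cells, the class aimed at by Tbx4-rtTA, had 1 and 3 UMIs in Dnmt1 CKO and 10 and 10 UMIs in wild type. Endothelial-like cells had 0 and 1 UMI in Dnmt1 CKO and 6 and 9 UMIs in wild type. The counting intervals of the ratio in epithelial-like, mesenchymal-like (1.66 to 19.9) and endothelial-like cells (1.16 to 317) overlapped, and a difference between these classes was not tested. Wild type libraries also held more Hal in immune-like cells, from which free RNA can reach other droplets, and the part of free RNA in these low levels was not tested. A single lymphoid-like cell of Dnmt1 CKO replicate 1 had a Hal UMI. Lymphoid-like cells of that library also carried Lpl at 397 CPM, against 69.1 CPM in Dnmt1 CKO replicate 2 and 0 in both wild type libraries.

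The 2 genes were rarely found in the same cells, and each was found in few cells. Over all kept wild type cells, 1.82% and 0% of Ifi44l-positive cells had a Hal UMI, against 1.72% and 1.55% of the others. Among immune-like cells alone these shares were 1.89% and 0%, against 10.8% and 8.73%. The overlap was not tested. A UMI of both was found in 1 kept cell of the 4 libraries, in the unnamed immune clusters of wild type replicate 1, and in no wild type macrophage-like, monocyte-like or Ear2/Lpl myeloid cell. In the unnamed immune clusters of wild type, 4 and 4 further cells had Ifi44l alone and 12 and 2 had Hal alone. In Ear2/Lpl myeloid cells, 1 cell of each wild type library had Ifi44l, against 46 and 40 cells with Hal. In macrophage-like cells, 36 and 48 wild type cells had Ifi44l, against 2 and 0 with Hal. Macrophage-like and Ear2/Lpl myeloid cells were both present in numbers in the mutant libraries.

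Over all 8 cell sets fitted with edgeR (immune-like, macrophage-like, monocyte-like, Ear2/Lpl myeloid, epithelial-like, endothelial-like, mesenchymal-like and all cells), Ifi44l passed the filter on low counts in 4 and Hal in 3. In immune-like cells 2 of 12449 genes were called (0.0161%), none higher and both lower in Dnmt1 CKO, and these were Ifi44l and Hal. The count was 347 without Dnmt1 CKO replicate 1, 116 without Dnmt1 CKO replicate 2 and 0 without either wild type library. In macrophage-like cells 7 of 9358 were called (0.0748%), 3 higher (0.0321%) and 4 lower (0.0427%). That count was 120 without Dnmt1 CKO replicate 1, 67 without Dnmt1 CKO replicate 2, 2 without either wild type library, 4 without the Hmox1 cluster and 44 with a replicate block. In Ear2/Lpl myeloid cells 1 of 9457 was called (0.0106%), which was Hal. Nothing is read from these calls for the 2 genes, since they were chosen on this contrast. Beside Ifi44l the macrophage-like calls were Ifi44, Klf4 and Areg lower, and Spp1, Gpnmb and Wfdc17 higher in Dnmt1 CKO, 6 genes named after their values were seen. Of these 6, only Ifi44 remained called without either wild type library, and Ifi44, Areg and Wfdc17 without the Hmox1 cluster. In monocyte-like cells none of 4198 genes was called by edgeR (0%), with 167 at an unadjusted p under 0.05.

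Ifi44, the paralogue next to Ifi44l, fell in macrophage-like cells as well. It lies 8.78 kb from Ifi44l on the same strand (chromosome 3, 151730922 to 151749960). Macrophage-like cells held 1 and 9 Ifi44 UMIs in Dnmt1 CKO, at 0.394 and 2.42 CPM, against 122 and 221 UMIs in wild type, at 128 and 168 CPM. The log2 fold change was −5.87 (SE 0.41; adjusted p = 0.00156, edgeR), and −5.61 without the Hmox1 cluster (adjusted p = 0.00066). Reads shared by the paralogues could be split or dropped by the counting, which was not tested.

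Monocyte-like cells had 0 and 2 Ifi44 UMIs in Dnmt1 CKO, against 31 and 43 UMIs in wild type, at 88.8 and 90.0 CPM. The log2 fold change of −3.28 (SE 0.49) did not pass the test in this small class (edgeR adjusted p = 0.303). Over all immune-like cells Ifi44 was at 0.122 and 1.66 CPM in Dnmt1 CKO and 41.9 and 56.0 CPM in wild type. There the log2 fold change of −5.29 (SE 0.62) missed the threshold as well (edgeR adjusted p = 0.224; DESeq2 0.0257).

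Ifi44 stayed present in other cells of the mutant, where Ifi44l was at or near 0 in both genotypes. Endothelial-like cells held 49 and 228 Ifi44 UMIs in Dnmt1 CKO, at 19.1 and 46.6 CPM, against 365 and 585 UMIs in wild type, at 57.9 and 68.3 CPM. Its log2 fold change of −0.88 (SE 0.35) did not pass the test there (edgeR adjusted p = 1.00), where 4 of 12638 genes were called (0.0317%). Epithelial-like cells had 20 and 75 UMIs in Dnmt1 CKO and 47 and 53 UMIs in wild type. The difference between the classes was itself tested, with the library as a block. The log2 change in macrophage-like cells minus that in endothelial-like cells was −5.32 (SE 0.36; edgeR adjusted p = 1.11e-06), and 56 of 12453 genes were called in this test (0.450%). Against epithelial-like cells it was −6.25 (SE 0.47; edgeR adjusted p = 4.80e-06), and 40 of 14419 genes were called (0.277%).

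**Figure D2:**
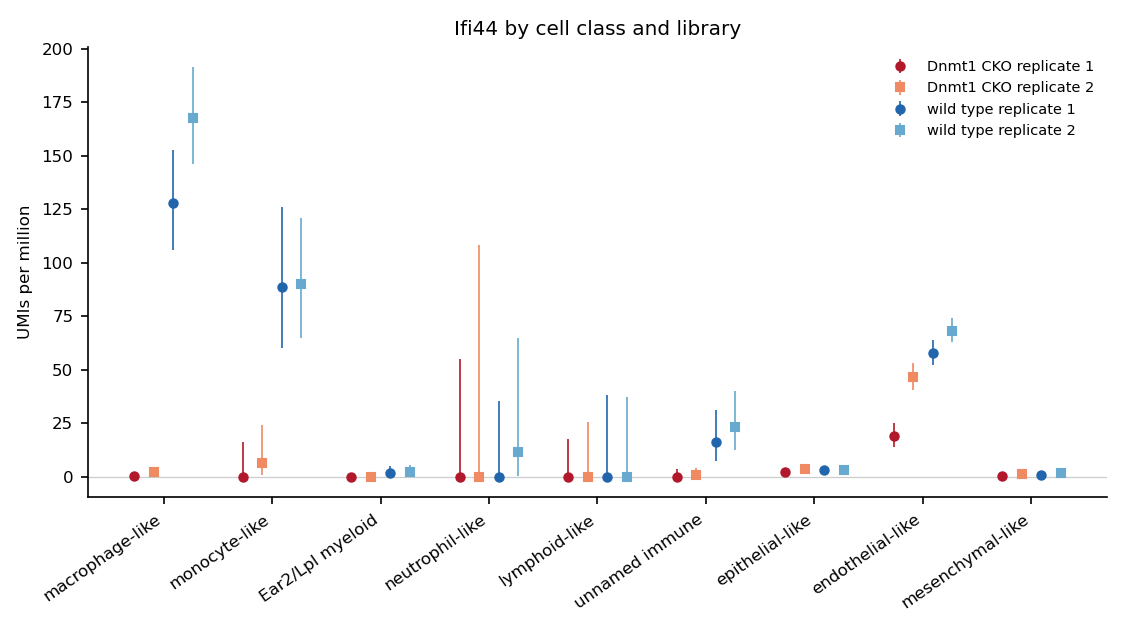
Level of Ifi44, in CPM (vertical axis), by cell class (horizontal axis) in the 2 Dnmt1 CKO libraries (red, orange) and the 2 wild type libraries (blue, light blue), with exact 95% Poisson intervals. Macrophage-like cells stand at 0.394 and 2.42 CPM in Dnmt1 CKO and at 128 and 168 CPM in wild type, while endothelial-like cells stand at 19.1 and 46.6 CPM in Dnmt1 CKO and 57.9 and 68.3 CPM in wild type.

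Within wild type, Ifi44 and Ifi44l tended to be found in the same cells. Of Ifi44l-positive macrophage-like cells 63.9% in replicate 1 and 75.0% in replicate 2 also had an Ifi44 UMI, against 37.8% and 43.2% of the other cells of the class. The positive cells were deeper, with medians of 9099 and 10786 UMIs against 7590 and 8478, and the part of depth was not tested. In monocyte-like cells 5 of the 10 positive cells of replicate 1 and 12 of the 19 of replicate 2 had an Ifi44 UMI, against 8.57% and 18% of the others.

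The wider interferon response was not missing from the mutant libraries as Ifi44l was. Of 49 tested interferon-response genes, out of 50 listed, 0 were called in immune-like cells (edgeR; 3 at an unadjusted p under 0.05, and 1 called by DESeq2), against 0.0161% of all genes. That share was Ifi44l and Hal alone, so 0 calls were all but certain and nothing is read from them. The median log2 fold change of the 49 genes was −0.50, with 8 above 0 and 41 below, beside a median of 0.00 over all 12449 genes. In macrophage-like cells 1 of 47, Ifi44, was called lower, against 0.0427% of all genes, and the median was −0.81, with 5 above 0 and 42 below, beside −0.01 over all genes. Without Dnmt1 CKO replicate 1 that median was −0.31, with 1 called lower and 2 higher, and without Dnmt1 CKO replicate 2 it was −1.55, with 17 called lower. In monocyte-like cells 0 of 40 were called (edgeR; 10 at an unadjusted p under 0.05), with a median of −0.67. There 0 of all 4198 tested genes were called, so nothing is read from the lack of calls.

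The replicates of the mutant differed in this list. Dnmt1 CKO replicate 1 was the lowest of the 4 libraries for 44 of the 47 genes in macrophage-like cells, and Dnmt1 CKO replicate 2 for 1. In immune-like cells 24 of the 49 tested genes were called lower without Dnmt1 CKO replicate 2, and 5 higher and 1 lower without Dnmt1 CKO replicate 1 (edgeR). The next 2 genes were picked by their role. Isg15, a ubiquitin-like interferon target, was at 22.4 and 116 CPM in Dnmt1 CKO and 93.3 and 162 CPM in wild type. Oasl2, of the oligoadenylate synthetase family, was at 12.6 and 57.0 CPM in Dnmt1 CKO and 62.9 and 87.3 CPM in wild type. Dnmt1 CKO replicate 2 lay within the range of the wild type libraries for Isg15 and below both for Oasl2. Ifi44l was at 0 in both Dnmt1 CKO replicates, and Ifi44 at 0.394 and 2.42 CPM.

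The 3 members of the list with the smallest p after Ifi44 in macrophage-like cells were below both wild type libraries in both mutant libraries and did not pass the test. Over all immune-like cells the smallest p belonged to Ifi44, Ifi213, Trim30d and Ifi203, with adjusted p of 0.224 for Ifi44 and 0.994 for the other 3 (edgeR). Slfn5, of the Schlafen family, was at 54.7 and 109 CPM in Dnmt1 CKO and 168 and 280 CPM in wild type (log2 fold change −1.41, SE 0.36; edgeR adjusted p = 0.331). Trim30d was at 28.0 and 21.5 CPM in Dnmt1 CKO and 68.2 and 44.8 CPM in wild type (−1.14, SE 0.29; edgeR adjusted p = 0.331). Ifi203, of the family of interferon-inducible DNA-binding proteins, was at 76.4 and 138 CPM in Dnmt1 CKO and 204 and 258 CPM in wild type (−1.06, SE 0.31; edgeR adjusted p = 0.392). All 3 lie, in size, between Ifi44 and the median of the list.

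The receptors, kinases and sensors through which interferon acts had a median near 0. Of 16 listed, 13 were tested in immune-like cells and 0 were called (edgeR; 1 at an unadjusted p under 0.05), against 0.0161% of all genes. That share was Ifi44l and Hal alone, so nothing is read from the 0 calls. The median log2 fold change of the 13 genes was 0.01. Ifnar1, a chain of the type I interferon receptor, was at 54.7 and 110 CPM in Dnmt1 CKO and 52.4 and 67.5 CPM in wild type. Irf8, a transcription factor of monocytes and dendritic cells, was at 162 and 214 CPM in Dnmt1 CKO and 145 and 151 CPM in wild type. Ifngr1, a chain of the interferon gamma receptor, was at 226 and 169 CPM in Dnmt1 CKO and 264 and 284 CPM in wild type (−0.42, SE 0.19; edgeR adjusted p = 0.994). The smallest p belonged to Cgas, a DNA sensor, at 22.4 and 20.2 CPM in Dnmt1 CKO and 28.5 and 37.8 CPM in wild type (−0.57, SE 0.23; edgeR adjusted p = 0.994).

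**Figure D3:**
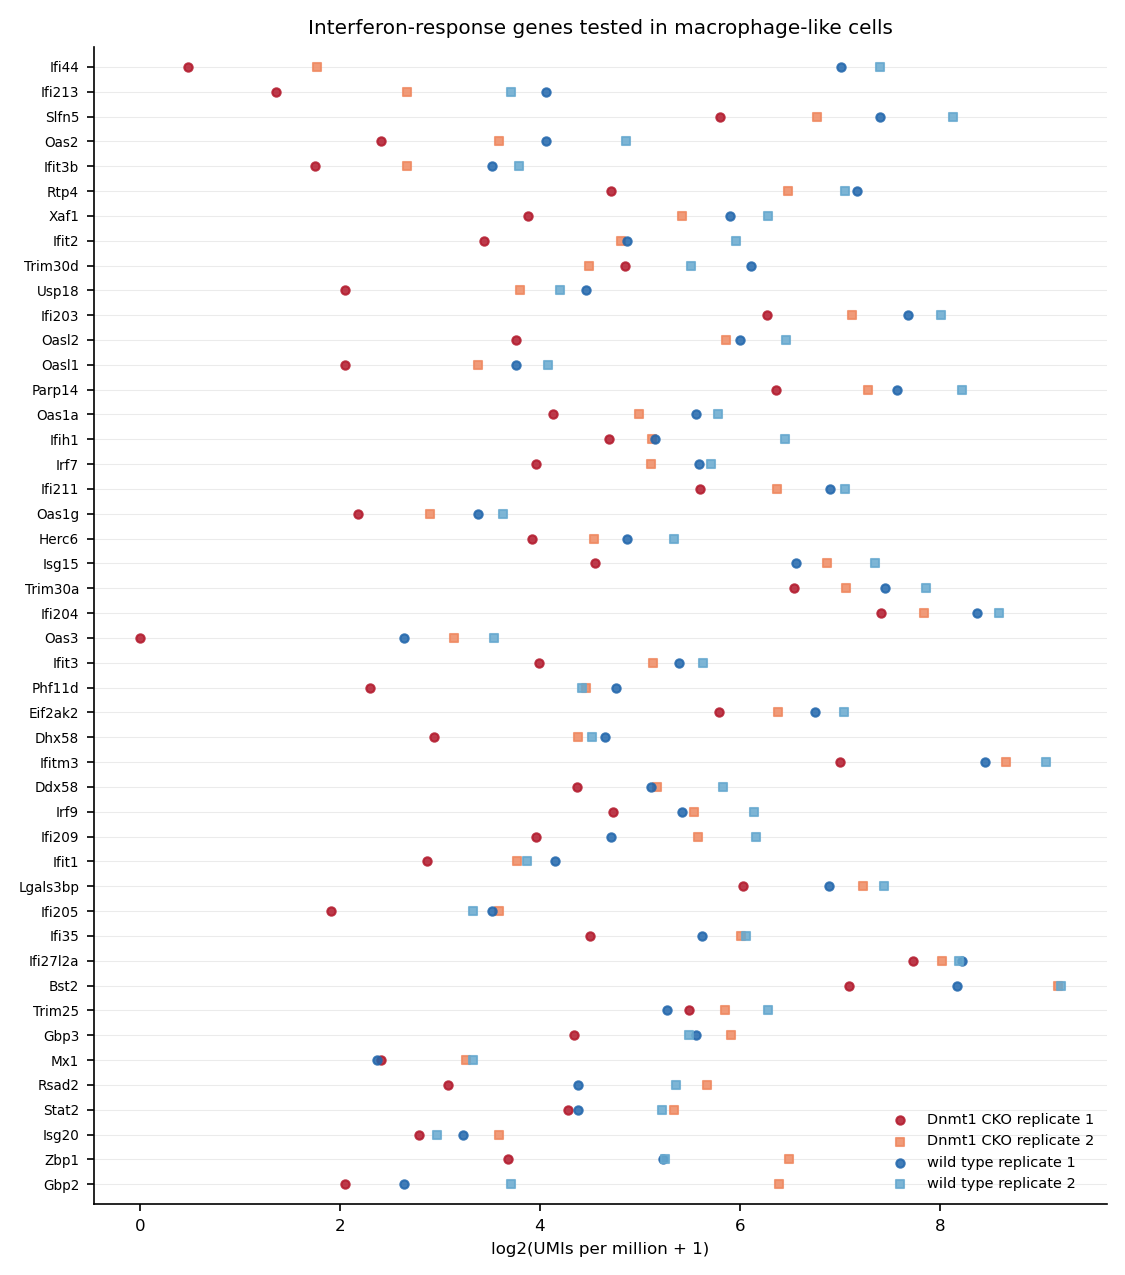
Level of 46 of the 47 interferon-response genes tested in macrophage-like cells, as log2(CPM + 1) (horizontal axis), one gene a row in order of log2 fold change, for the 2 Dnmt1 CKO libraries (red, orange) and the 2 wild type libraries (blue, light blue). Dnmt1 CKO replicate 1 is the lowest library in 43 of these rows, while Ifi44, in the top row, has both mutant libraries far below both wild type ones.

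The other enzymes and carriers of histidine that could be tested had a median change above 0 in immune-like cells. Of 13 listed genes 8 were tested there and 0 were called (edgeR; 0 at an unadjusted p under 0.05), against 0.0161% of all genes, with a median log2 fold change of 0.19. In Ear2/Lpl myeloid cells 6 were tested and 0 called (edgeR; 0 at an unadjusted p under 0.05), against 0.0106% of all genes. The first share was Ifi44l and Hal alone and the second Hal alone. With such shares 0 calls were all but certain, and nothing is read from them. In mesenchymal-like cells 3 of 8 tested genes were called higher (edgeR), where 13.1% of all genes were called in either direction. Cndp2, a dipeptidase that releases histidine from dipeptides, had the smallest p in immune-like cells, at 128 and 185 CPM in Dnmt1 CKO and 106 and 112 CPM in wild type (0.60, SE 0.26; edgeR adjusted p = 0.994). Slc15a4, a lysosomal carrier of histidine, came next, at 46.1 and 48.0 CPM in Dnmt1 CKO and 35.3 and 46.4 CPM in wild type. Hnmt, which methylates histamine, and Slc7a5, a carrier of large amino acids, had log2 fold changes of 0.55 and 0.34. Hdc, picked by its role, which turns histidine into histamine, was at 159 and 98.4 CPM in Dnmt1 CKO and 143 and 105 CPM in wild type. Slc15a3, a further lysosomal carrier picked by its role, was at 129 and 116 CPM in Dnmt1 CKO and 140 and 144 CPM in wild type in the Ear2/Lpl myeloid cells that hold Hal. Uroc1, Amdhd1 and Ftcd, which act after Hal in the same pathway, were too low to be tested in immune-like cells.

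Genes beside Ifi44l and Hal on their chromosomes were examined over the 10 nearest tested genes on each side. In immune-like cells 0 of the 20 neighbours of Ifi44l and 0 of the 20 neighbours of Hal were called by edgeR. Each 20 held 1 at an unadjusted p under 0.05. The share called over all genes was 0.0161%, which was Ifi44l and Hal alone. At that rate 0 calls were all but certain, so nothing is read from them. DESeq2 called 1 of the 40, which was Ifi44 (DESeq2 adjusted p = 0.0257), also the single interferon-response gene that it called in these cells. The median log2 fold changes were 0.02 and 0.14. Beside Ifi44, the smallest p belonged to Gm43857, Miga1 and St6galnac3 around Ifi44l, with log2 fold changes of −0.55, 0.61 and 0.48, and to Ndufa12, Vezt, Cep83 and Tmcc3 around Hal, with 0.55, 0.64, −0.43 and −0.33. In macrophage-like cells, 1 of 15 tested neighbours of Ifi44l was called, which is Ifi44, against 0.0748% of all genes. The next genes on the other side began 416 kb away with Dnajb4, a co-chaperone gene, at 28.4 and 31.5 CPM in Dnmt1 CKO and 22.0 and 50.1 CPM in wild type. The gap on the far side of Ifi44 to the next tested gene was larger, so few tested genes lie close to this pair.

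Hal lies in a denser region. Lta4h, which makes leukotriene B4 and lies 3.89 kb away, was at 69.2 and 43.3 CPM in Dnmt1 CKO and 49.6 and 41.0 CPM in wild type in Ear2/Lpl myeloid cells (log2 fold change 0.37, SE 0.25; edgeR adjusted p = 0.999). Snrpf, a core splicing protein gene 63.7 kb away on the other side, was at 298 and 155 CPM in Dnmt1 CKO and 205 and 203 CPM in wild type (0.19, SE 0.26; edgeR adjusted p = 0.999). The smallest p among the 15 tested neighbours there was that of Ndufa12, a subunit gene of respiratory complex I 679 kb away, at 92.0 and 70.0 CPM in Dnmt1 CKO and 54.2 and 53.4 CPM in wild type (0.64, SE 0.20; edgeR adjusted p = 0.999). None of these 15 was called in Ear2/Lpl myeloid cells (edgeR; 1 at an unadjusted p under 0.05). The share over all genes was 0.0106%, which was Hal alone, so nothing is read from the lack of calls.

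**Figure D4:**
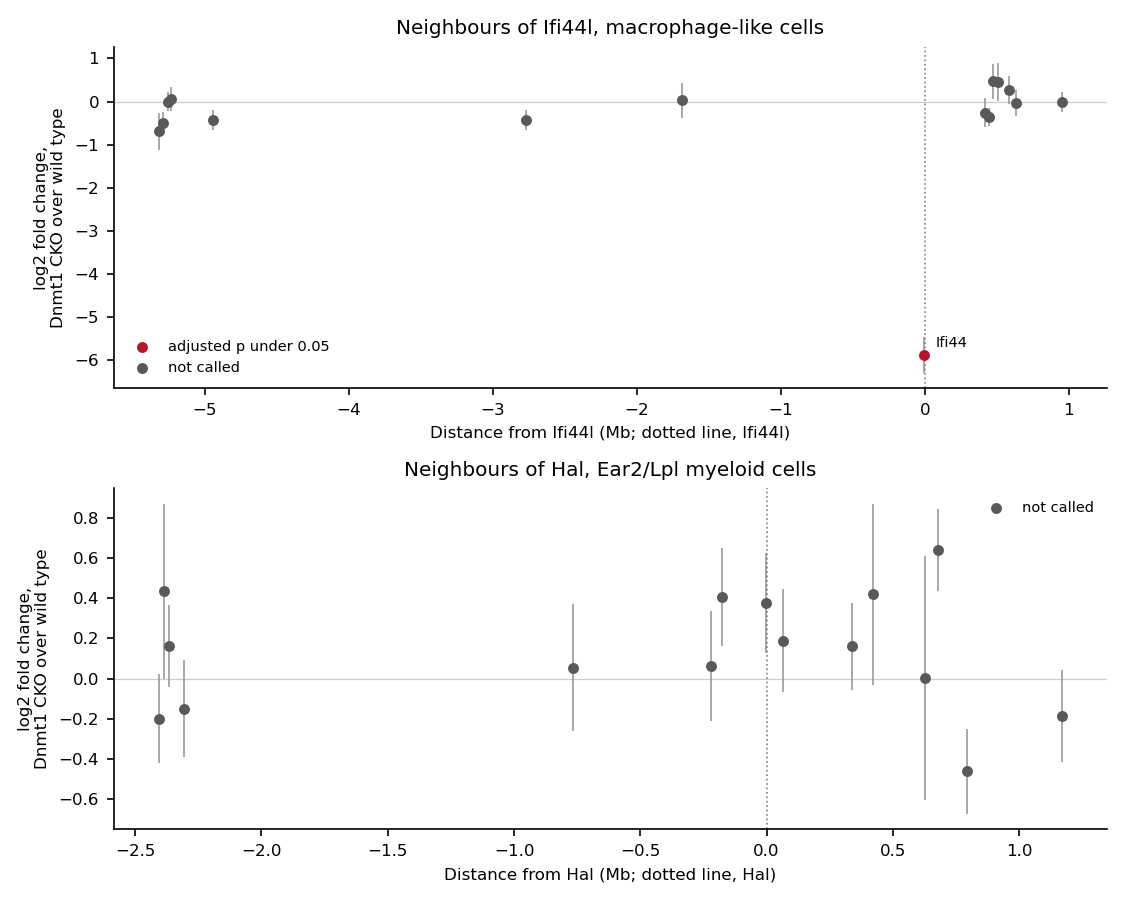
Log2 fold change of Dnmt1 CKO over wild type (vertical axis, bars are approximate SE) against distance (horizontal axis, Mb) for the tested neighbours of Ifi44l in macrophage-like cells (top, 15 genes) and of Hal in Ear2/Lpl myeloid cells (bottom, 15 genes). Ifi44, 8.78 kb from Ifi44l, stands at −5.87 and is the single called neighbour (red); the others (grey) were not called.

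Presence in a single genotype was rare in the immune-like cells. Requiring at least 10 UMIs in each library of a genotype and at most 3 over the other, 20 of 12213 genes were found in Dnmt1 CKO alone (0.164%) and 2 in wild type alone (0.0164%), which were Hal and Ifi44l. The rule meets the contrast that chose them, so this count is a description. Of the UMIs of these 20 genes in Dnmt1 CKO, 49.5% belonged to Hbb-y and Hba-x, embryonic globins, with 62 and 362 UMIs and 88 and 199 UMIs in Dnmt1 CKO, against 2 and 0 and then 1 and 0 UMIs in wild type. The next in UMIs were Dazl, Rhox5, Trap1a, Cd209f, Clvs1, Gm10040, Ccl11 and Gm45155. Dazl, a germ-cell gene, had 72 and 88 UMIs in Dnmt1 CKO and 0 and 0 UMIs in wild type. Rhox5, an X-linked homeobox gene of the reproductive tract, had 38 and 21 UMIs in Dnmt1 CKO and 0 and 0 UMIs in wild type. Of the 20 genes, 17 were at a higher level in the mutant cells that were not immune-like, in both libraries, so their UMIs in immune-like droplets are not read as expression there, and the part of free RNA was not tested. Dazl was at 8.75 and 12.2 CPM in immune-like cells of Dnmt1 CKO, against 310.0 and 223 CPM in its other cells, and Rhox5 at 4.62 and 2.90 CPM against 132 and 63.4 CPM. The exceptions were both globins and Cd209f, a C-type lectin gene, which had 26 and 25 UMIs in immune-like cells of Dnmt1 CKO and 0 and 0 in its other cells. Few immune-like cells of Dnmt1 CKO held these genes, 0.463 and 1.09% for Hbb-y, 0.810 and 1.97% for Hba-x and 0.810 and 0.873% for Cd209f. Globin UMIs are therefore not read as expression by immune cells, and the part of erythroid RNA was not tested. Of the Hba-x UMIs, 50 and 189 lay in the Ear2/Lpl myeloid cells of Dnmt1 CKO (13.1 and 126 CPM), against 1 and 0 in those of wild type.

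Over all kept cells, 187 of 19204 genes were found in Dnmt1 CKO alone (0.974%) and 5 in wild type alone (0.0260%). Hal, with 9 and 15 mutant UMIs, was not one of those 5. The 5 were Ifi44l, Qrfpr, Rmst and the gene models Gm47775 and Gm7868. Qrfpr, a neuropeptide receptor gene, had 0 and 3 UMIs in Dnmt1 CKO and 84 and 45 UMIs in wild type, of which 80 and 45 lay in mesenchymal-like cells. Rmst, a long noncoding RNA 1.32 Mb from Hal on chromosome 10, had 1 and 2 UMIs in Dnmt1 CKO and 11 and 20 UMIs in wild type, mostly in epithelial-like cells. Those outside Ifi44l were named after their values were seen.

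Genes with a profile like that of Ifi44l were ranked by Pearson's r over log2(CPM + 1) in 5 classes of 4 libraries, 20 points that share libraries and depth, among 21351 genes. Serpinb2, a plasminogen activator inhibitor gene of myeloid cells, came first (r = 0.968) with 9 and 15 UMIs in Dnmt1 CKO and 19 and 32 UMIs in wild type over all cells. Ifi44 had rank 3 (r = 0.861), and the other 6 of the top 8 were Gm49728, Gm43670, Gm29803, 2610528A11Rik, Gm43048 and Gm20703, with r of 0.921 to 0.803. Apart from Ifi44, the genes of this top 8 had only 27 to 107 UMIs over all kept cells. The profile also holds the contrast that chose Ifi44l, so the order is a description and no finding. Serpinb2 did not pass the test in immune-like cells (log2 fold change −2.39, SE 0.53; edgeR adjusted p = 0.778). For Hal the same 5 classes put the Ear2/Lpl myeloid cells with all other cells, and Hoga1, a mitochondrial aldolase gene, came first (r = 0.882), followed by Gm32856, Smoc1, Cenpi, R74862, 1700055D18Rik, Csnk2a3 and Gm4739 (r of 0.844 to 0.811). Hal and all 8 of these genes have the same level, 3.42 on the log2(CPM + 1) scale, in the 50 neutrophil-like cells of wild type replicate 1, which is 1 Hal UMI, and all have UMIs in the 28 lymphoid-like cells of Dnmt1 CKO replicate 1, where Hal has 1. This order rests on single UMIs in small classes and is no finding. With the Ear2/Lpl myeloid cells as a class of their own (24 points, chosen after the values were seen), the highest r for Hal was 0.802, for the gene model E030018B13Rik.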

How the data were processed

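The deposited files held UMI counts per gene and barcode, unnormalised, made by the authors from 10x 3' v3 libraries; the submitters' processing notes name the build GRCm38.p6, Seurat, Cell Ranger 3.1.0 and bcl2fastq 2.20. The lowest barcode total was 500 UMIs. Barcodes with under 500 genes or over 20% mitochondrial UMIs, and Scrublet doublets (expected rate 6%; 1.39 to 4.20% called), were left out. Cells were clustered in scanpy 1.11.5 (leidenalg 0.10.2, resolution 1.0) without integration and without the 2 genes, mitochondrial, globin and sex-linked genes, and immune-like cells were clustered again. The score a name needed was set after the clusters were seen. UMIs were summed per class and library. edgeR 4.0.16 (TMM, filterByExpr, quasi-likelihood F-test, R 4.3.3) compared genotypes, with Benjamini-Hochberg adjustment over all genes of a fit, a prior count of 2 and calls at an adjusted p under 0.05. It was tested on simulated data. The SE of a fold change was its size over the square root of the F statistic. The fold change is shrunk by the prior count and the F statistic is not, so this SE is approximate and is not a fitted standard error. An exact permutation test of 2 against 2 cannot go below p = 0.333. Alternatives were DESeq2 1.42.0, RLE, no filter, a replicate block, other cell filters and resolutions, thinning and leaving out each library. Of 55471 gene identifiers, 54487 were found in GENCODE vM21.

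The 2 genes and all lists were chosen with earlier results of these data known. Named genes are Dnmt1, the 2 genes, called list members and neighbours (or those with the smallest p), the most alike genes and those of a single genotype; a few other pathway members are examples by role, chosen after their values were seen. One gene of the interferon-response list is counted with the list and is not reported here by itself.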

Additional observations from a re-analysis of the deposited data

Results flagged for a closer look

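Ifi44 changed differently between cell classes under the same contrast of Dnmt1 CKO with wild type, by a test of the difference itself with the library as a block. The log2 change in macrophage-like cells minus that in endothelial-like cells was −5.32 (SE 0.36; edgeR adjusted p = 1.11e-06), with lower Ifi44 in 2 of 2 mutant libraries against both wild type libraries in either class. Against epithelial-like cells the difference was −6.25 (SE 0.47; edgeR adjusted p = 4.80e-06). Both tests were added after the values were seen.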

How the results depend on the processing

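The difference in Ifi44l and Hal kept its direction in every alternative run. The mean level of Ifi44l in macrophage-like cells (Dnmt1 CKO minus wild type, −56.7 CPM) was −44.6 CPM after thinning to 3000 UMIs, and that of Hal in Ear2/Lpl myeloid cells (−29.4 CPM) was −23.0 CPM at a Leiden resolution of 2.0. Without each library in turn the ranges were −63.0 to −50.3 CPM and −33.7 to −25.1 CPM. Counts of calls in immune-like cells moved far more. The 2 genes called became 31 with DESeq2, 249 with no low-count filter, 4 with doublets kept, and between 0 and 347 without a library: 347 without Dnmt1 CKO replicate 1, 116 without Dnmt1 CKO replicate 2, and 0 without either wild type library. The 0 interferon-response genes called became 1 with DESeq2, 6 with no filter, and 0 to 24 without a library, of which 24 without Dnmt1 CKO replicate 2 were all lower and 6 without Dnmt1 CKO replicate 1 were mixed. The 0 neighbours called became 1 with DESeq2, 1 with no filter and 0 to 1 without a library. A replicate block gave 5 genes, 1 interferon-response gene and 1 neighbour. With DESeq2 and with the block, that interferon-response gene and that neighbour were the same gene, Ifi44. Deviations from the genotype mean had a correlation of −0.03 between libraries of the same replicate number. With 2 libraries a genotype this value is the same for either number by construction. A batch or litter shared between the genotypes was not tested. Genes in Dnmt1 CKO alone (20 of 12213) were 2 of 10692 under at least 20 and 0 UMIs, 187 of 19204 over all kept cells and 34 of 12902 with doublets kept. Genes in wild type alone (2) were 1 and 5 under the first pair of settings. Ifi44 in macrophage-like cells stayed called in all 9 alternatives. The causes were not tested. Few cells limit monocyte-like, neutrophil-like and lymphoid-like classes.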
